A study of Mus musculus with 6 samples.

Results

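The ATP-binding cassette (ABC) transporters were taken as every gene whose array symbol is Abca, Abcb, Abcc, Abcd, Abce, Abcf or Abcg followed by a number and an optional letter. This rule found 48 of the 19937 genes that had a probe set of their own, each represented by its brightest such probe set. Whole livers of FVB/NJ embryos, taken at embryonic day 13.5, had their RNA measured on 1-colour Affymetrix gene arrays, 1 liver to an array. The groups were 3 Klf1-/- livers, from embryos that lack the erythroid transcription factor Klf1, and 3 wildtype livers, all from matings of Klf1+/- mice. The labels name no Cre and no transgene, and they do not state which part of Klf1 was altered. Nor do they say whether any of the embryos were littermates. The p-values set the difference between groups against the spread within groups of these 6 livers, and take no account of litters. A whole liver at this age holds red cell precursors together with hepatoblasts, macrophages, megakaryocytes, endothelium and mesenchyme, and in such a sample fewer cells of a type and less RNA per cell cannot be told apart.

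ABC proteins use the energy of ATP to move molecules across membranes. Most have transmembrane segments joined to paired ATP-binding domains, and they carry lipids, bile salts, drugs, heme precursors, peptides and conjugated anions. The ABCE and ABCF proteins keep the ATP-binding domains but lack the membrane part and act on ribosomes. In the developing red cell, mitochondrial ABC proteins take part in heme and iron-sulfur metabolism, and in the liver others build bile and export sterols.

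Values are log2 RMA intensities, and changes are Klf1-/- minus wildtype followed by ± and the standard error from limma. Genes counted as called, or as having risen or fallen, where the Benjamini-Hochberg adjusted p over all genes was under 0.05. Klf1 itself read 9.05, 9.38 and 9.12 in the Klf1-/- livers, against 10.59, 10.58 and 10.76 in the wildtype livers, which checks nothing about the protein if the probes lie outside the altered part. Erythroid markers were abundant in both groups. Their summed signal lay between 15.12 and 15.24 in Klf1-/- livers and between 16.11 and 16.22 in wildtype livers. Of 12 measured markers 11 fell, where 8.26% of all genes did. Y-linked genes were high on 1 array of each group.

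The ABC genes divided in both directions. Of 48 genes, 6 rose, 7 fell and 35 were not called, so 12.5% rose and 14.6% fell. Over all genes 19.1% were called, 10.8% higher and 8.26% lower. The median change of the ABC genes was -0.08, against -0.02 over all genes, and their median size of change was 0.20, against 0.14. Centring the arrays on the median level of 14 housekeeping genes moved the median of all genes to -0.34. With that shift 4 ABC genes rose and 28 fell. On the deposited scale the median change of the housekeeping genes was 0.01, and 13 of them were not called. Pgk1, the 1 that rose, stood near the middle of their levels, at 12.61 in Klf1-/- livers and 11.73 in wildtype livers. Centring on the deviations of these genes from their own means moved the median of all genes to -0.04. The values below are on the deposited scale. The largest fall was that of Abcb10 and the largest rise that of Abcg1. In 18 of the 48 genes the groups did not overlap, 37.5% of them, and over all genes the share was likewise 37.5%. By subfamily, 4 of 9 ABCB genes fell and 0 rose, 2 of 16 ABCA genes rose and 1 fell, 2 of 10 ABCC genes rose and 1 fell, and 1 of 6 ABCG genes went each way. The 3 ABCD genes and Abce1 were not called, and 1 of 3 ABCF genes rose. A total of 12 ABC genes lay above the upper quartile of genes on all 6 arrays, and 5 lay below the lower quartile on all 6.

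**Figure D1:**
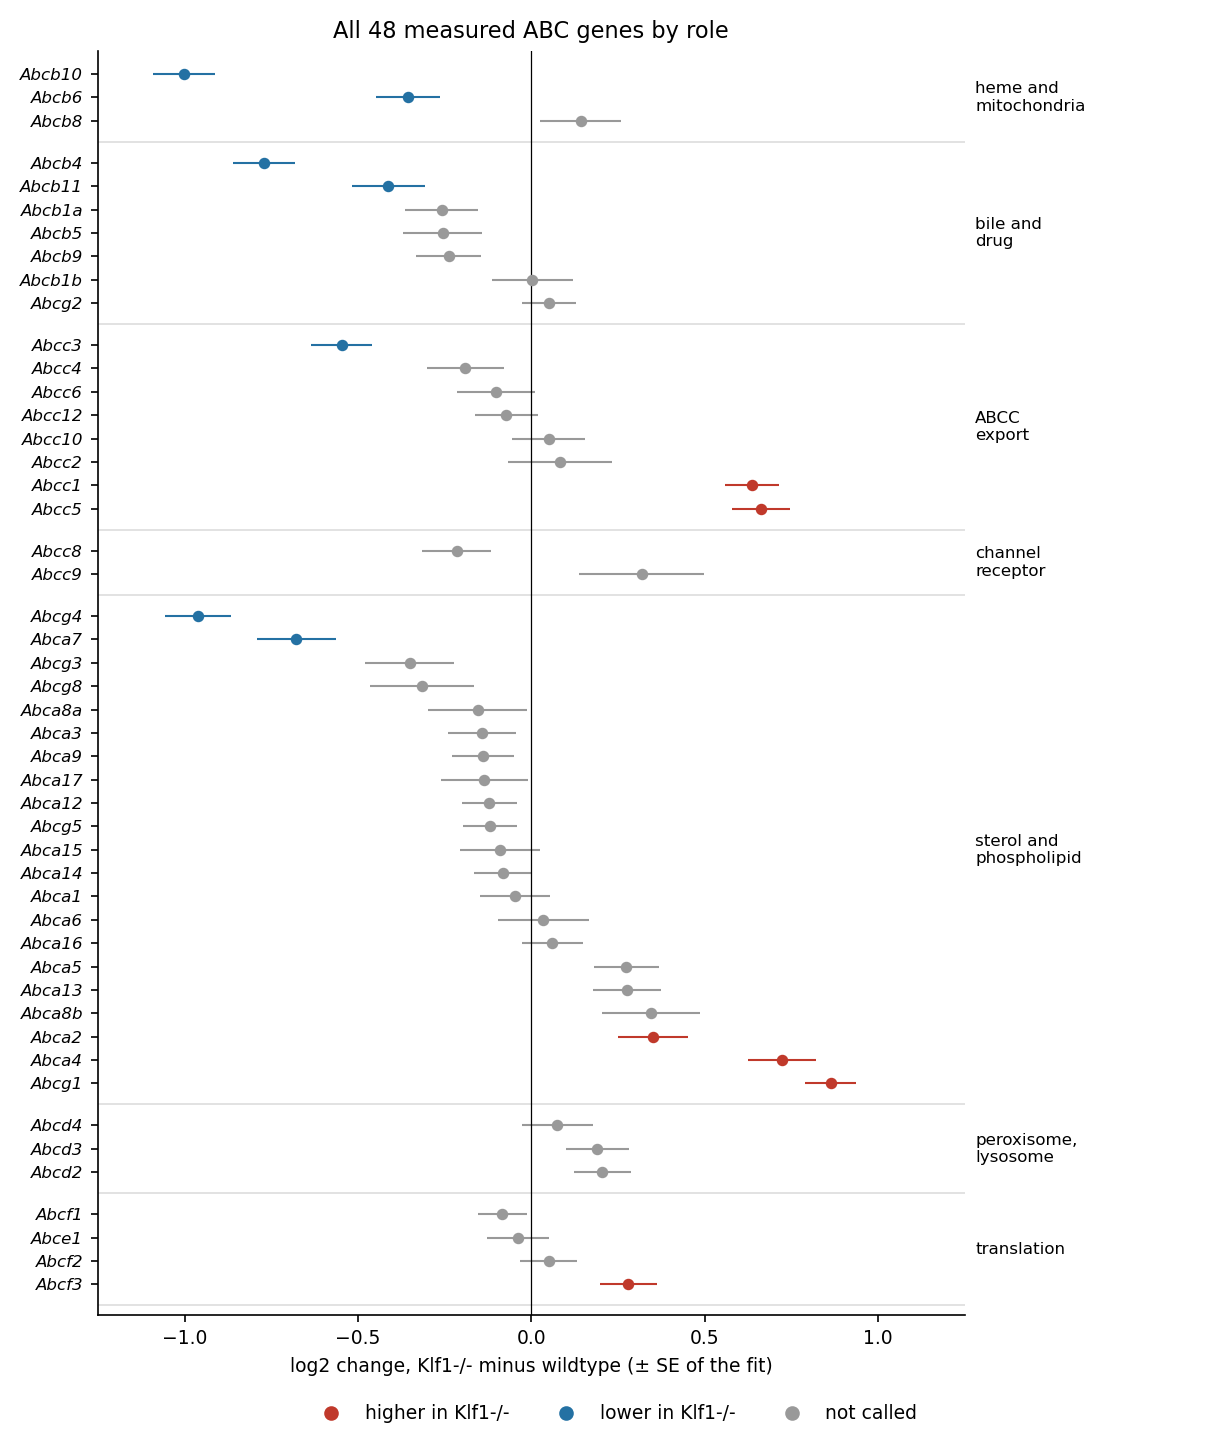
Change of each of the 48 ABC genes, grouped by role, as log2 Klf1-/- minus wildtype on the horizontal axis, with bars for the standard error of the fit (n = 3 livers per group). Red points rose, blue points fell and grey points were not called; the ends of the range are Abcb10 at -1.001 and Abcg1 at 0.86.

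The start sites of the genes that moved were set side by side. The promoter window runs from 250 bases before to 50 bases after the annotated start, from RefSeq on GRCm38.p6. Both strands were searched for CCNCNCCC, a form of the CACCC-type element that Klf1 is known to bind, and for AGATAA, a form of the GATA element. Windows were at hand for 5 of the 7 genes that fell, 4 of the 6 that rose and 29 of the 35 not called. CCNCNCCC occurred in 3 of the 5 that fell, in 2 of the 4 that rose and in 18 of the 29 not called, where 49.5% of 32851 promoter windows of 300 bases hold it. AGATAA occurred in 0 of the 5, 0 of the 4 and 6 of the 29, against 11.2% of all windows. A gene counted if any of its windows matched, and some uncalled genes had several windows, while the shares over all are per window. The windows of Abcg5 and Abcg8 overlap and hold the same 3 AGATAA matches, yet both genes count among the 6. A match is a run of letters and not evidence of binding. The windows below are of the largest fall, Abcb10, of Abcb6, the other heme gene that fell, of Abcb4 and of Abcc5, which rose. They read 5′ to 3′ on the strand of the gene, with every CCNCNCCC match, or its reverse complement, in capitals. They lie at chr8:123983073-123983372 (minus strand), chr1:75180343-75180642 (minus), chr5:8893471-8893770 (plus) and chr16:20426345-20426644 (minus).
Abcb10: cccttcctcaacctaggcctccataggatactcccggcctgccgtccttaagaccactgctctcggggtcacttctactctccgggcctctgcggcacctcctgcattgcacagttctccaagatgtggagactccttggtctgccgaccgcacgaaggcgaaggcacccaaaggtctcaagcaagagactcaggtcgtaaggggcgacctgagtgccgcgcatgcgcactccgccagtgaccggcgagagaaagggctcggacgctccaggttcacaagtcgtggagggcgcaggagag
Abcb6: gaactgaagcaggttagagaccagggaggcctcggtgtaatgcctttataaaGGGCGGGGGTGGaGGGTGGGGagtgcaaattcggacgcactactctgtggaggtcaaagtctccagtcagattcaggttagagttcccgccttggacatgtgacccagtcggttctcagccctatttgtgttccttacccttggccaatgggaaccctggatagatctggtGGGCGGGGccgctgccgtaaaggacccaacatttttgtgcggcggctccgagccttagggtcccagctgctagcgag
Abcb4: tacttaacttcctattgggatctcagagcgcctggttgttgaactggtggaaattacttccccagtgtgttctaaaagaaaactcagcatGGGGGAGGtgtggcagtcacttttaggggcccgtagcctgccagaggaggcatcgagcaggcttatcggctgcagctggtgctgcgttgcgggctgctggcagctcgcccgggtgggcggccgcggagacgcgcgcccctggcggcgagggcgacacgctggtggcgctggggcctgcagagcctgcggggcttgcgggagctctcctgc
Abcc5: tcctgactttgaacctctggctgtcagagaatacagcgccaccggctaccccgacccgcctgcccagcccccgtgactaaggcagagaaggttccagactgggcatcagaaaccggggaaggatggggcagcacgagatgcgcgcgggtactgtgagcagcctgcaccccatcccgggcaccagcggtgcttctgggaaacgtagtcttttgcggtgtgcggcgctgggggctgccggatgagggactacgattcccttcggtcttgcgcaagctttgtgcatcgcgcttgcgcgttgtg
Abcb10, which fell furthest, had 0 matches, as had Abcc5, which rose. Abcb6 had 4, of which 3 lie close together and 2 overlap, and Abcb4 had 1.

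The genes of heme and mitochondrial export fell, apart from Abcb8. Abcb10, a transporter of the mitochondrial inner membrane needed for hemoglobin production, read 10.23, 10.38 and 10.31 in Klf1-/- livers, against 11.20, 11.27 and 11.46 in wildtype livers. All 3 Klf1-/- livers lay below the wildtype range. The change was -1.001 ± 0.09, a linear fold of 0.50 (limma adjusted p = 2.31e-05). Abcb6, a porphyrin transporter that in humans carries the Langereis blood group, read 9.999, 10.16 and 10.09 in Klf1-/- livers, against 10.29, 10.43 and 10.58 in wildtype livers. Its groups also stood apart, by a smaller step, with a change of -0.36 ± 0.09 (limma adjusted p = 0.0218). That call was lost without Klf1-/- replicate 1 or 3 or wildtype replicate 2 or 3, and without moderation, with limma adjusted p from 0.00322 to 0.11 over its alternatives. Abcb8, a mitochondrial transporter tied to iron export from mitochondria, was not called, at 8.05 ± 0.12 in Klf1-/- livers and 7.91 ± 0.23 in wildtype livers (SD, n = 3 each).

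Most listed partners of these genes fell as well. Of 21 measured heme and iron-sulfur genes 12 fell and 3 rose, where 8.26% and 10.8% of all genes did, and their median change was -0.31. Slc25a37, the mitochondrial iron importer, averaged 11.41 in Klf1-/- livers and 13.38 in wildtype livers, a change of -1.97 ± 0.07 (limma adjusted p = 3.31e-08). Flvcr1, a heme exporter, went the other way, with 10.53 in Klf1-/- livers and 9.15 in wildtype livers, a rise of 1.38 ± 0.10. Isca1, an iron-sulfur assembly protein, fell by 1.30 ± 0.09. Without Klf1-/- replicate 2 or 3, 1 partner rose in place of 3. Fech, the last enzyme of heme synthesis, and Tmem14c, a mitochondrial porphyrin carrier, were not called, at -0.08 ± 0.07 and -0.13 ± 0.08.

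**Figure D2:**
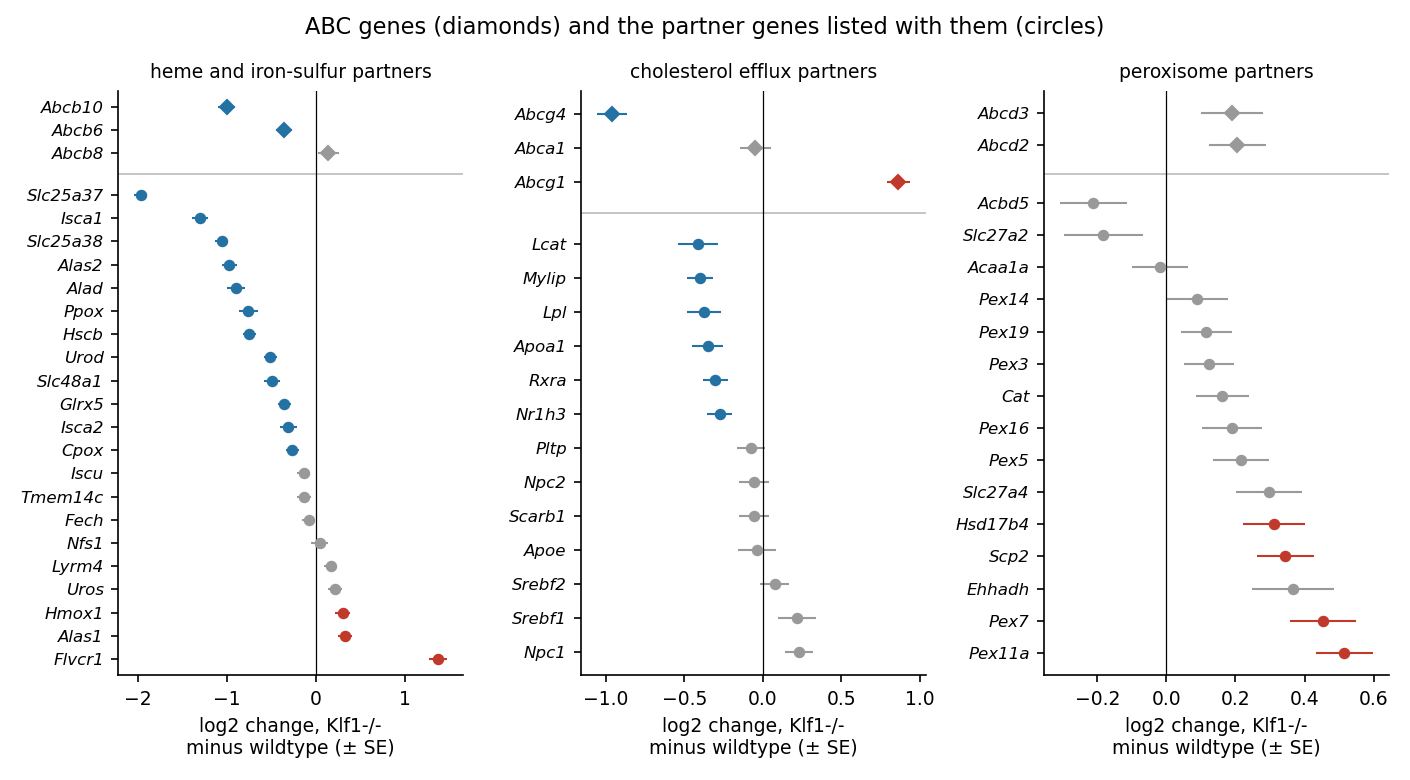
Changes (log2 Klf1-/- minus wildtype, bars for the standard error of the fit, n = 3 per group) of ABC genes, drawn as diamonds above the line, and of the partner genes listed with them, drawn as circles below it. Blue fell, red rose and grey was not called; 12 of 21 heme and iron-sulfur partners and 6 of 13 cholesterol partners fell, while 4 of 15 peroxisome partners rose.

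Among the genes grouped under bile formation and drug export, Abcb4 and Abcb11 fell and 5 others were not called. The group also holds Abcb9, a lysosomal peptide transporter. Abcb4, the floppase that brings phosphatidylcholine into bile, read 10.01, 10.18 and 10.00 in Klf1-/- livers, against 10.82, 10.73 and 10.96 in wildtype livers. Every Klf1-/- liver lay below every wildtype liver, and the change was -0.77 ± 0.09 (limma adjusted p = 0.000153). Abcb11, the bile salt export pump, read 6.61, 6.80 and 6.90 in Klf1-/- livers, against 7.17, 7.03 and 7.35 in wildtype livers. This change of -0.41 ± 0.11 (limma adjusted p = 0.0205) was lost without Klf1-/- replicate 1 or 2 or wildtype replicate 3, and without moderation, with limma adjusted p from 0.00329 to 0.142 over its alternatives. Of 9 measured hepatoblast markers 1 fell, Fgb, and 8 were not called, where 8.26% of all genes fell. When any 1 Klf1-/- replicate or wildtype replicate 3 was left out, or after quantile normalization, 0 of these markers fell. Their summed signal lay between 15.77 and 15.89 in Klf1-/- livers and between 15.80 and 16.06 in wildtype livers. These sums overlapped between the groups, and the part of hepatoblasts in the falls of Abcb4 and Abcb11 was not tested.

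The close relatives of Abcb4 on the same chromosome did not share its call. Abcb4 and Abcb1b stand next to each other among the measured genes of chromosome 5. Abcb1a and Abcb1b, the P-glycoproteins that expel drugs, were dim. Abcb1a averaged 5.97 ± 0.17 in Klf1-/- livers and 6.23 ± 0.13 in wildtype livers (SD, n = 3 each; change -0.26 ± 0.10, limma adjusted p = 0.111). Abcb1b averaged 5.62 ± 0.12 in Klf1-/- livers and 5.61 ± 0.24 in wildtype livers, a change of 0.003 ± 0.12. As Abcb1a and Abcb1b are close relatives, their probes may not be fully separable, which was not checked. Abcg2, which exports porphyrins and urate and in humans carries the Junior blood group, was among the brighter ABC genes, with 10.96, 11.02 and 11.01 in Klf1-/- livers and 10.92, 10.88 and 11.04 in wildtype livers. Its groups overlapped, with a change of 0.05 ± 0.08. Abcb9, a lysosomal peptide transporter, was at -0.24 ± 0.09 and Abcb5 at -0.26 ± 0.11, neither called. The second probe set of Abcb5, dimmer still, read 3.97 to 4.03 in Klf1-/- livers and 3.99 to 4.05 in wildtype livers.

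The listed regulators and partners of bile and drug transport had 1 rise and 1 fall among 14, or 7.14% each way, near the 10.8% and 8.26% of all genes. Hif1a rose by 0.29 ± 0.09 and Slc10a1, the bile salt uptake carrier of hepatocytes, fell by 0.44 ± 0.10, and each call was lost with some single array left out. Hif1a was not called when any 1 Klf1-/- replicate was left out, nor without wildtype replicate 2 or 3, and Slc10a1 was not called without Klf1-/- replicate 3 or wildtype replicate 3. The bile acid receptor Nr1h4 and the drug receptors Nr1i2 and Nr1i3 were at -0.06, 0.16 and -0.16 and were not called.

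The ABCC exporters held 2 clear rises and 1 fall. Abcc1, which exports leukotriene C4 and glutathione conjugates, read 8.62, 8.55 and 8.59 in Klf1-/- livers, against 7.87, 7.96 and 8.02 in wildtype livers. All 3 Klf1-/- livers were higher than any wildtype liver, and the rise was 0.64 ± 0.08 (limma adjusted p = 0.000211). Abcc5, an exporter of cyclic nucleotides, read 8.85, 8.89 and 8.89 in Klf1-/- livers, against 8.15, 8.15 and 8.35 in wildtype livers. The groups were likewise apart, with a rise of 0.66 ± 0.08 (limma adjusted p = 0.000282). Abcc3, an organic anion exporter of the basolateral membrane, read 7.50, 7.53 and 7.45 in Klf1-/- livers, against 7.88, 8.13 and 8.11 in wildtype livers. It fell by 0.55 ± 0.09 (limma adjusted p = 0.00151), and its groups did not overlap. Abcc4, which carries cyclic nucleotides and is found in platelet granules, was not called, at 8.12 ± 0.07 in Klf1-/- livers and 8.32 ± 0.22 in wildtype livers (SD, n = 3 each). Abcc6, Abcc10 and Abcc12 were not called either, with changes from -0.10 to 0.05.

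All 7 megakaryocyte markers measured rose. For this list and the 2 that follow, the share of all genes that rose was 10.8%, and 8.26% fell. The megakaryocyte markers had a summed signal of 14.24 to 14.63 in Klf1-/- livers and 13.87 to 13.94 in wildtype livers. Without moderation of the variances 1 of the 7 rose. Of 8 granulocyte markers 4 rose, 2 without Klf1-/- replicate 3 or wildtype replicate 3, and 0 without moderation or with housekeeping level centring. Of 8 stem and progenitor markers 5 rose, 3 without Klf1-/- replicate 2 or wildtype replicate 2 and 2 without moderation; with housekeeping level centring 2 rose and 3 fell. On the deposited scale the called members of these lists moved in the same direction as Abcc1 and Abcc5, and their part in those rises was not tested.

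The sterol and phospholipid transporters were the largest role group, and its members went both ways. Of 21, 3 rose and 2 fell, or 14.3% and 9.52%, near the 10.8% and 8.26% of all genes. Abcg1, which moves sterols out of the cell to lipoprotein, read 9.08, 9.09 and 9.06 in Klf1-/- livers, against 8.24, 8.14 and 8.25 in wildtype livers. The rise of 0.86 ± 0.07 had the smallest p of the ABC genes (limma adjusted p = 1.72e-05). Abcg4, its close relative with the same kind of substrate, read 9.20, 9.34 and 9.25 in Klf1-/- livers, against 10.07, 10.21 and 10.39 in wildtype livers. It fell by 0.96 ± 0.10 (limma adjusted p = 4.54e-05). The groups of both genes were apart, in opposite directions. Abca1, the partner exporter that loads lipid onto apolipoprotein, read 10.09, 9.99 and 10.18 in Klf1-/- livers and 10.11, 9.97 and 10.31 in wildtype livers, and the groups overlapped.

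Abca4, known as the retinoid flippase of the photoreceptor, was dim but rose. It read 6.68, 6.61 and 6.83 in Klf1-/- livers, against 5.92, 6.15 and 5.87 in wildtype livers, a change of 0.72 ± 0.10 (limma adjusted p = 0.000443). Abca7, a phospholipid transporter with a role in phagocytosis, read 8.54, 8.54 and 8.76 in Klf1-/- livers, against 9.09, 9.26 and 9.51 in wildtype livers. It fell by 0.68 ± 0.11 (limma adjusted p = 0.00188), and was not called without moderation of the variances (adjusted p = 0.0686; 0.000572 to 0.0686 over its alternatives). Abca2, a lipid transporter of endosomes and lysosomes, read 7.54, 7.83 and 7.78 in Klf1-/- livers, against 7.23, 7.45 and 7.43 in wildtype livers. Its groups did not overlap, and the rise of 0.35 ± 0.10 (limma adjusted p = 0.0336) was lost without Klf1-/- replicate 2 or 3 or wildtype replicate 1 or 3, without moderation and with each of the 4 rescalings of the arrays, with limma adjusted p from 0.0153 to 0.78 over its alternatives.

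The remaining sterol and phospholipid genes were not called. Abcg5 and Abcg8, which together export plant sterols into bile, were at -0.12 ± 0.08 and -0.32 ± 0.15. Abca3, the surfactant lipid transporter of lung, was at -0.14 ± 0.10. Abca12, Abca14, Abca15 and Abca16 lay below the lower quartile on all 6 arrays, as did Abcb5, and their changes ran from -0.12 to 0.06 without Abcb5. Abca17 changed by -0.14 ± 0.13, Abca13 by 0.28 ± 0.10 and Abcg3 by -0.35 ± 0.13.

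Of the 13 measured cholesterol partners 6 fell and 0 rose, where 8.26% and 10.8% of all genes did, and their median change was -0.07. Lcat, which esterifies cholesterol on lipoprotein, averaged 9.36 in Klf1-/- livers and 9.77 in wildtype livers, a change of -0.41 ± 0.13 (limma adjusted p = 0.0425). Mylip, a ubiquitin ligase for the LDL receptor, fell by 0.40 ± 0.08 and Lpl, lipoprotein lipase, by 0.37 ± 0.11. This count was not stable: 1 fell without Klf1-/- replicate 2 or wildtype replicate 3, 2 fell without Klf1-/- replicate 1 or 3, and 1 fell without moderation. Without wildtype replicate 3, 2 partners rose. Of 12 macrophage markers 7 fell (2 without moderation) and 0 rose, again beside 8.26% and 10.8% of all genes. Their summed signal was 12.22 to 12.42 in Klf1-/- livers and 12.55 to 12.72 in wildtype livers. Abcg1 rose where that list fell, and Abca7 fell with it; the part of macrophages in either was not tested.

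**Figure D3:**
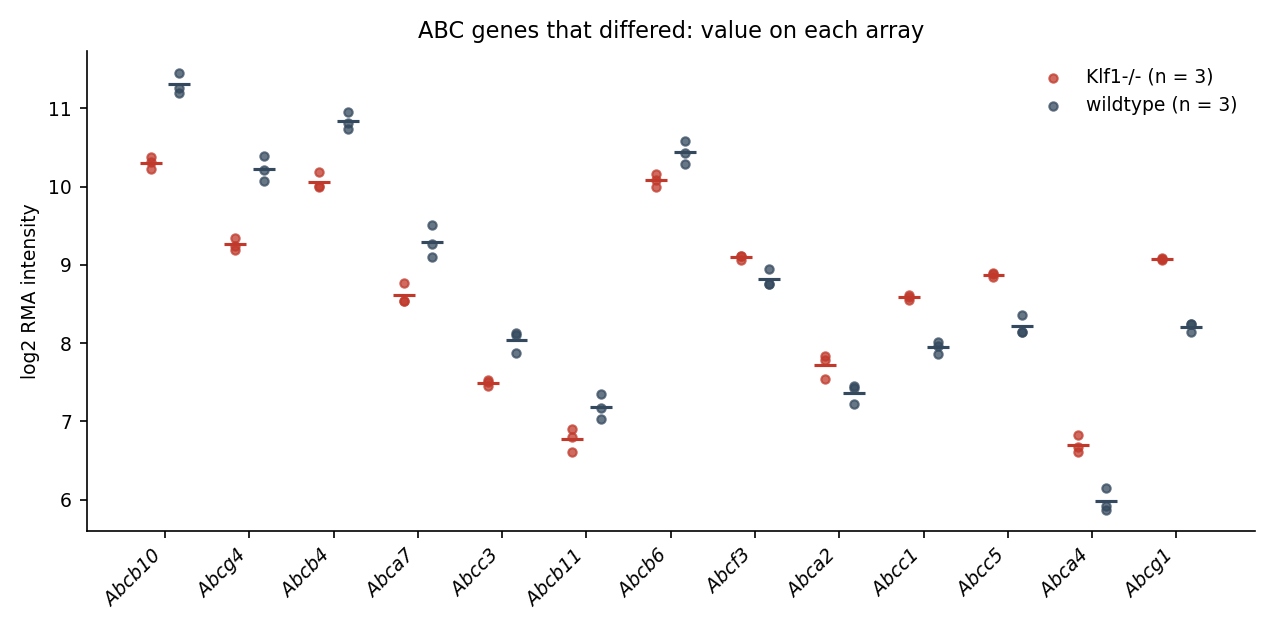
Log2 RMA intensity on each array of the 13 ABC genes that were called, ordered from the largest fall, Abcb10, to the largest rise, Abcg1. Points are single livers (red Klf1-/-, dark wildtype, n = 3 each) and bars are group means. In all 13 genes the groups do not overlap, but the genes were called on these same values. Over all genes the groups did not overlap in 37.5%.

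Of the ABCD, ABCE and ABCF genes 1 was called, Abcf3. Abce1, which splits ribosomes after termination, was the brightest ABC gene, with 12.20, 12.32 and 12.25 in Klf1-/- livers and 12.40, 12.35 and 12.13 in wildtype livers, and its groups overlapped. Abcf1 and Abcf2 were not called, at -0.08 ± 0.07 and 0.05 ± 0.08. Abcf3, of a family that acts in translation, read 9.06, 9.11 and 9.12 in Klf1-/- livers, against 8.76, 8.94 and 8.75 in wildtype livers. Its rise of 0.28 ± 0.08 (limma adjusted p = 0.0368) was lost with any single array left out other than wildtype replicate 2 and with each of the 4 rescalings of the arrays. Over its alternatives the limma adjusted p ran from 0.0154 to 0.741. Of 8 listed partners in ribosome recycling and amino acid sensing 1 rose, or 12.5%, near the 10.8% of all genes. That partner was the kinase Eif2ak4, with a rise of 0.49 ± 0.08 (limma adjusted p = 0.00233).

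Abcd2 and Abcd3, which bring fatty acyl-CoA into peroxisomes, had positive changes of 0.20 ± 0.08 and 0.19 ± 0.09 (limma adjusted p = 0.11 and 0.169). Abcd4, which serves cobalamin release from lysosomes, was at 0.07 ± 0.10. The groups of Abcd2 did not overlap, with 7.90, 7.92 and 7.80 in Klf1-/- livers and 7.76, 7.67 and 7.57 in wildtype livers. Of 15 measured peroxisome partners 4 rose and 0 fell, where 10.8% and 8.26% of all genes did. Positive changes were seen in 12, and the median was 0.19. Pex11a, which acts in peroxisome division, rose by 0.51 ± 0.08, the import receptor Pex7 by 0.45 ± 0.10 and the carrier Scp2 by 0.34 ± 0.08. Without Klf1-/- replicate 2 or 3, 2 of the 15 rose, and without moderation 1 rose. With centring on the housekeeping level 0 rose, 3 fell and the changes of all 3 ABCD genes were negative.

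The peptide transporters of antigen loading and the chloride channel Cftr belong to the same superfamily but carry other symbols, so they were listed as partners. Tap1 and Tap2 averaged 6.82 and 7.79 in Klf1-/- livers and 6.64 and 7.54 in wildtype livers, with changes of 0.18 ± 0.11 and 0.25 ± 0.08 (limma adjusted p = 0.282 and 0.0503). Of the 13 genes of MHC class I loading 0 were called, where 19.1% of all genes were. Cftr was dim, at 4.54 in Klf1-/- livers and 4.43 in wildtype livers.

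In several ABC genes that were not called, among them Abcc9, Abca8b, Abcc2 and Abca6, wildtype replicate 3 lay above the other wildtype arrays. Abcc9, the sulphonylurea receptor of vascular and muscle potassium channels, read 8.39, 8.16 and 8.40 in Klf1-/- livers and 7.73, 7.76 and 8.51 in wildtype livers. Wildtype replicate 3 lay above all the others, so the groups overlapped and the change of 0.32 ± 0.18 was not called (limma adjusted p = 0.242). Without that array the change was 0.57 (adjusted p = 0.00502; 0.00502 to 0.986 over its alternatives). Abca8b, a lipid transporter of liver and heart, read 8.46, 8.40 and 8.64 in Klf1-/- livers and 7.90, 8.05 and 8.51 in wildtype livers. Its change of 0.35 ± 0.14 (limma adjusted p = 0.115) was 0.53 without wildtype replicate 3 (adjusted p = 0.00908; up to 0.88 over its alternatives), and it was also called with array weights. Abcc2, which exports bilirubin conjugates into bile, read 9.81, 9.83 and 9.93 in Klf1-/- livers and 9.57, 9.55 and 10.19 in wildtype livers, and its change of 0.08 ± 0.15 was 0.29 without that array (adjusted p = 0.039; up to 0.948 over its alternatives). Wildtype replicate 3 held the highest wildtype value in 30 of the 48 ABC genes, against 31.2% of all genes.

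The same array was the highest of all 6 in 5 of the 8 marker lists, the erythroid and macrophage lists among them. The summed signal of 8 mesenchymal markers was 12.28 on wildtype replicate 3, against 11.43 to 11.70 on the Klf1-/- arrays and 11.58 and 11.89 on the other wildtype arrays. The 8 endothelial markers summed to 12.35 there and to 12.21 or less elsewhere, and the 9 hepatoblast markers to 16.06 there and to 15.89 or less elsewhere. The part of these cells in the values of Abcc9, Abca8b and Abcc2 was not tested. Abcc8, the other sulphonylurea receptor, was at -0.22 ± 0.10, and the channel subunits Kcnj8 and Kcnj11 were at 0.03 and -0.18; none of these was called.

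**Figure D4:**
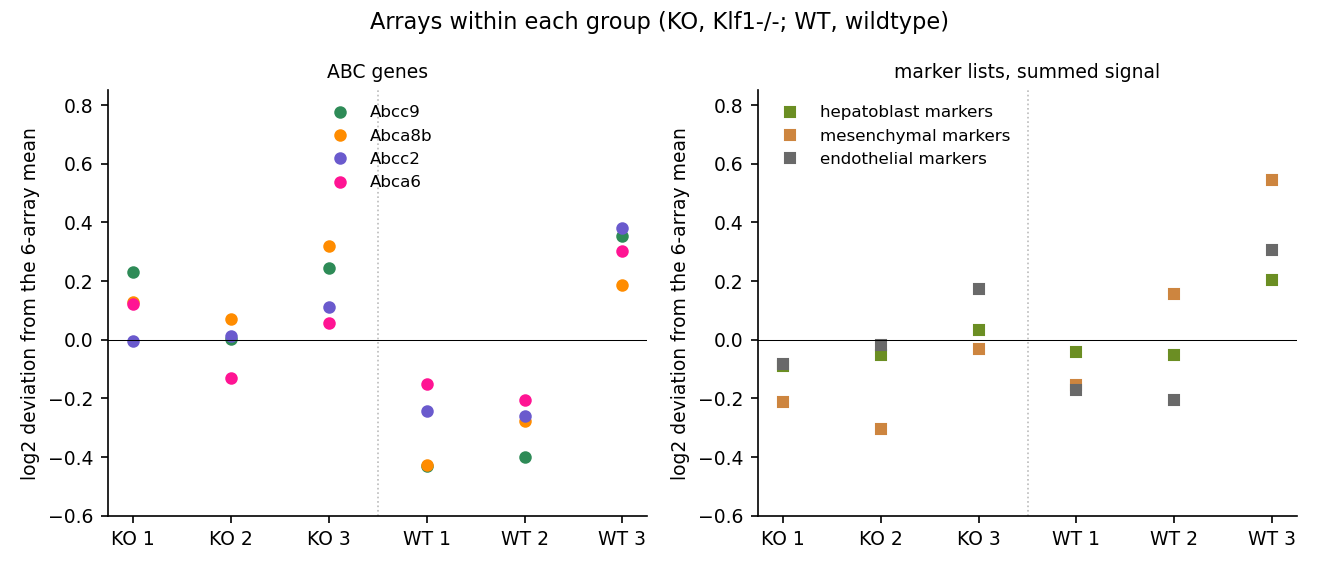
Deviation of each array from the mean of all 6, in log2, for 4 ABC genes (left) and for the summed signal of 3 marker lists (right), with Klf1-/- arrays to the left of the dotted line and wildtype arrays to the right. Wildtype replicate 3 stands above the other wildtype arrays in all 7 series, but the 4 genes were named for that trait. The other marker lists are not drawn, and not all of them share it.

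Abca8b, Abca8a, Abca9, Abca6 and Abca5 are close relatives that lie together on chromosome 11. None was called, and their changes were 0.35, -0.15, -0.14, 0.03 and 0.27. Abca8a and Abca9 were dim, near 5.8 and 5.9 in Klf1-/- livers and 5.9 and 6.0 in wildtype livers, while Abca6 read 8.03 ± 0.13 in Klf1-/- livers and 7.99 ± 0.28 in wildtype livers (SD, n = 3 each). The nearest measured genes on either side of the 13 called ABC genes were also read from the gene order. Of 25 such neighbours that are not ABC genes 7 were called, 5 of them in the direction of their ABC gene, where 19.1% of all genes were called. Both neighbours of Abca7 went against it: Cnn2 rose by 0.66 and Arhgap45 by 0.78. Both neighbours of Abca4 rose with it, Arhgap29 by 0.55 and Gclm by 0.33. The neighbours of Abcb10, Nup133 and Taf5l, were at -0.001 and -0.09 and were not called, and those of Abcg1 and Abcg4 were not called either.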

How the data were processed

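The authors deposited 1 linear intensity per probe set for each of 6 arrays, 3 of Klf1-/- and 3 of wildtype livers. The submitters' processing notes name RMA and Affymetrix Power Tools (version 1.8.6); a genome build is not given in the sources used here. The arrays were scaled to each other by RMA, and total RNA was not measured. Values ran from 5.6 to 27244.9, with a median of 104.5 to 109.8 per array; the number of arrays limits the precision. Of 34760 probe sets 21640 had 1 gene in the platform annotation, 1321 had several and 11799 had none, and the brightest of each gene gave 19937 genes. The 48 ABC genes had 49 single-gene probe sets. Log2 values entered limma (3.58.1, run in R 4.3.3: lmFit, then eBayes, 2-sided) without a filter on dim genes, and p-values were adjusted over all genes by the Benjamini-Hochberg method. The fit was tested on simulated data, and protein motifs were not analysed here. Chromosome order and names came from the GRCm38.p6 gene table and promoter windows from RefSeq. The ABC genes, their roles, the partner lists and the cell type markers were chosen with earlier results of these data known. Every ABC gene is accounted for; every called one is given per array, and up to 3 called partners per list are named. Naming uncalled partners and the neighbours of called genes was decided with the values in view. The 20 alternatives were 4 rescalings, 2 filters on dim genes, the mean of probe sets, a covariate for Y-linked genes, weights for the arrays, 3 variance models, a replicate block, an adjusted p under 0.01 and leaving out each array. The labels do not say whether their replicate numbers pair the livers, and the main fit used no pairing. Deviations of same-numbered livers from their group means correlated at -0.156, -0.224 and 0.183. With 3 arrays per group these values cannot show whether livers were paired.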

Additional observations from a re-analysis of the deposited data

How the results depend on the processing

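Of the 13 called ABC genes, 8 kept their direction and their call under every alternative that could give them a value, namely Abcb10, Abcg4, Abcb4, Abcc3, Abcc1, Abcc5, Abca4 and Abcg1; Abca4 and Abcb11 were removed by the filter at the median level. The 7 falls numbered 5 to 8 and the 6 rises 4 to 8 with 1 array left out. Centring on the housekeeping level lowered the median of all genes to -0.337, from -0.024 as deposited. It called 28 ABC genes lower and 13245 genes in all, with 95.6% of calls lower, against 43.2% as deposited. Centring on the 75th percentile made that share 61.0%, and centring on housekeeping deviations 42.6%, with a median of all genes of -0.04. With housekeeping level centring 10 genes of MHC class I loading, 10 regulators of bile and drug transport, 7 ribosome partners and 7 hepatoblast markers fell. Over all genes 3809 were called as deposited, 2083 without moderation, 1995 at the stricter threshold and 2409 to 3749 with 1 array left out, the lowest without Klf1-/- replicate 2 and 2414 without replicate 3.

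Signs turned in the following. With housekeeping level centring Abcf3, called as deposited, was at -0.033, and Abca13 was at -0.038, Abca16 at -0.253, Abca5 at -0.04, Abca6 at -0.279, Abcb1b at -0.31, Abcb8 at -0.171, Abcc10 at -0.263, Abcc2 at -0.23, Abcd2 at -0.108, Abcd3 at -0.123, Abcd4 at -0.239, Abcf2 at -0.264 and Abcg2 at -0.263. With 75th percentile centring Abca16 was at -0.004, Abca6 at -0.03, Abcb1b at -0.062, Abcc10 at -0.015, Abcf2 at -0.015 and Abcg2 at -0.014. With quantile normalization Abca6 was at -0.052, Abcc12 at 0.033 and Abce1 at 0.04. Abcb1b was at -0.013 with centring on housekeeping deviations and Abca1 at 0.021 with array weights. With 1 array left out the changes ran from -0.129 to 0.044 in Abca1, -0.22 to 0.013 in Abca15, -0.262 to 0.017 in Abca17, -0.059 to 0.195 in Abca6, -0.303 to 0.01 in Abca8a, -0.133 to 0.087 in Abcb1b, -0.037 to 0.131 in Abcc10, -0.027 to 0.294 in Abcc2, -0.191 to 0.009 in Abcc6, -0.001 to 0.187 in Abcd4, -0.119 to 0.016 in Abce1 and -0.011 to 0.094 in Abcf2. The cause of these turns was not tested. The replicate block gave 3498 calls over all genes, with 6 ABC genes higher and 7 lower; Abca8b was then called (limma adjusted p = 0.0408) and Abcf3 was not (limma adjusted p = 0.0544).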
